A study of Mus musculus with 12 samples.

Results

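The genes described here encode the translation factors of MIN6 cells, the proteins that start, extend and end the synthesis of a polypeptide on the ribosome. They were taken by name, as all mouse symbols that begin with Eif1 to Eif6, Eef1 or Eef2, or that are Etf1 or begin with Gspt, without the Eif2ak kinases. This gave 66 of the 12643 genes measured, of which 13 were subunits of eIF3 and 53 were other members. A further 19 symbols of the reference with such names, among them the paralog Eif3j2, were not analysed here. MIN6 is a mouse insulinoma line, a tumour-derived model of the pancreatic beta cell. Cells of passage 29, kept in high-glucose medium, received Pdx1 siRNA or the control siRNA named NT by nucleofection, and RNA was taken after 72 h. A TRAP procedure then gave IP RNA, which was pulled down with ribosomes, and total RNA. The 4 groups were therefore Pdx1 siRNA IP RNA, NT siRNA IP RNA, Pdx1 siRNA total RNA and NT siRNA total RNA, with 3 libraries each. The sources used here do not give how the ribosomes were tagged, and the labels do not state that the 3 libraries of a group were separate cultures, so every p-value rests on a spread among libraries that may be technical. MIN6 is a single tumour line, which limits it as a model of the islet.

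Initiation begins when eIF2 brings the initiator tRNA to the small ribosomal subunit, together with eIF1, eIF1A, eIF5 and the large scaffold eIF3. The eIF4 proteins bind the cap of the mRNA and unwind its leader, and 4E-BP proteins block this step by holding eIF4E. During elongation eEF1A delivers aminoacyl-tRNA, the eEF1B subunits recharge eEF1A with GTP, and eEF2 moves the ribosome along the mRNA. Termination is carried out by eRF1 and eRF3. Beta cells make very large amounts of proinsulin, and their translation is known to be adjusted through phosphorylation of eIF2 and through mTOR and the 4E-BPs.

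The libraries held 29430690 to 45806807 counts over the genes, and the translation factors took 0.901% to 1.127% of them. Levels are given as CPM, the counts divided by the TMM-normalised library size and scaled alike in every library. The TMM factors, which correct for differences in composition, were 0.752 to 0.866 in Pdx1 siRNA IP RNA, 0.984 to 1.011 in NT siRNA IP RNA, 0.95 to 1.066 in Pdx1 siRNA total RNA and 1.22 to 1.231 in NT siRNA total RNA, so they moved with the groups. The targeted gene followed the labels: Pdx1 was at 50.99 ± 5.54 CPM with Pdx1 siRNA and 117 ± 6.89 CPM with NT siRNA in total RNA, and at 45.5 ± 5.84 CPM with Pdx1 siRNA and 110.01 ± 5.85 CPM with NT siRNA in IP RNA (SD, n = 3 each). Of 8 beta-cell markers all 8 were measured, with summed levels in total RNA of 92188 to 98412 CPM with Pdx1 siRNA and 101839 to 112831 CPM with NT siRNA. In IP RNA these sums overlapped, at 183658 to 227082 CPM with Pdx1 siRNA and 202165 to 236660 CPM with NT siRNA. Among them Pcsk1 rose in both fractions (0.59 in total RNA and 0.54 in IP RNA, log2 fold change). Besides Pdx1, called lower in both were Ins1 (−0.39 in total RNA and −0.28 in IP RNA), Mafa (−0.94 in total RNA and −0.40 in IP RNA) and Slc2a2 (−0.325 in total RNA and −0.99 in IP RNA). Ins2, Iapp and Nkx6-1 were not called in either fraction. Of 6 markers of other islet cells 4 were measured (Gcg, Ppy, Ttr and Irx1), and all 4 rose with Pdx1 siRNA in both fractions. Their summed level in total RNA was 31002 to 34604 CPM with Pdx1 siRNA and 10639 to 12899 CPM with NT siRNA, and in IP RNA 60841 to 76862 CPM with Pdx1 siRNA and 19558 to 23740 CPM with NT siRNA. Their part in the results below was not tested. The 8 immune, endothelial, stromal and acinar markers looked for were not analysed here. In bulk RNA, fewer cells of a kind and less RNA per cell cannot be told apart. A set of 4 IP libraries, NT replicate 3 and all 3 of Pdx1 siRNA, stood apart from the other IP libraries at some genes, among them Eif3m and Eif4a3. For translation factors named singly below, siRNA effects in IP RNA are therefore also given against NT IP replicate 3 alone where that ends a call. The calls of the markers above were not checked in this way.

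Levels of different genes were compared per kilobase of transcript. In total RNA Eef1a1 averaged 1244 CPM per kb with Pdx1 siRNA and 923 CPM per kb with NT siRNA, the highest level of the 66 in both groups. Of the 13 eIF3 subunits 12 lay between 31.8 CPM per kb (Eif3b) and 98.8 CPM per kb (Eif3k) with Pdx1 siRNA and between 34.01 CPM per kb (Eif3m) and 101 CPM per kb (Eif3k) with NT siRNA. Eif3j1, whose protein is a loosely held part of the complex, was far below them at 0.812 CPM per kb with Pdx1 siRNA and 0.883 CPM per kb with NT siRNA. Its level is uncertain, since 43.8% of its transcript matches that of the related gene Eif3j2. In IP RNA the same 12 subunits lay between 17.1 CPM per kb (Eif3a) and 267 CPM per kb (Eif3k) with Pdx1 siRNA and between 21 CPM per kb (Eif3a) and 205 CPM per kb (Eif3k) with NT siRNA.

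The main question of the design is what loss of Pdx1 changes, and log2 fold changes for it are of Pdx1 siRNA over NT siRNA. Values in parentheses after the levels of a gene are log2 fold changes. In total RNA, 5 of the 6 elongation factors rose after Pdx1 siRNA, while most of the called genes of initiation and its control fell. Of the 66 members 34 were called by edgeR's quasi-likelihood test at an adjusted p under 0.05, 11 higher and 23 lower, which is 51.5% beside the 53% called among all genes. The split by direction was 16.7% higher and 34.8% lower, beside 23.8% and 29.2% among all genes. The median log2 fold change was −0.11 over the members and −0.041 over all genes. The 3 libraries with Pdx1 siRNA did not overlap the 3 with NT siRNA for 41 members (62.1%, beside 58.8% of all genes). The split depended on scaling and on the fit: it was 13 higher and 18 lower with RLE factors, and 13 higher and 15 lower with upper-quartile factors, and 13 higher and 17 lower when total RNA libraries alone were fitted.

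In IP RNA all 6 elongation factors rose and most called genes of initiation fell. Of the 66 members 39 were called, 14 higher and 25 lower, which is 59.1% beside the 59.7% called among all genes, with 21.2% higher and 37.9% lower beside 29.2% and 30.4%. The median log2 fold change was −0.048 over the members and −0.010 over all genes. The groups did not overlap for 47 members (71.2%, beside 64.9% of all genes). Against NT IP replicate 3 as the lone NT IP library, assumed to vary like the other libraries, 24 members were called, 10 higher and 14 lower. Calls kept under every alternative numbered 20 of 34 in total RNA and 22 of 39 in IP RNA.

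**Figure D1:**
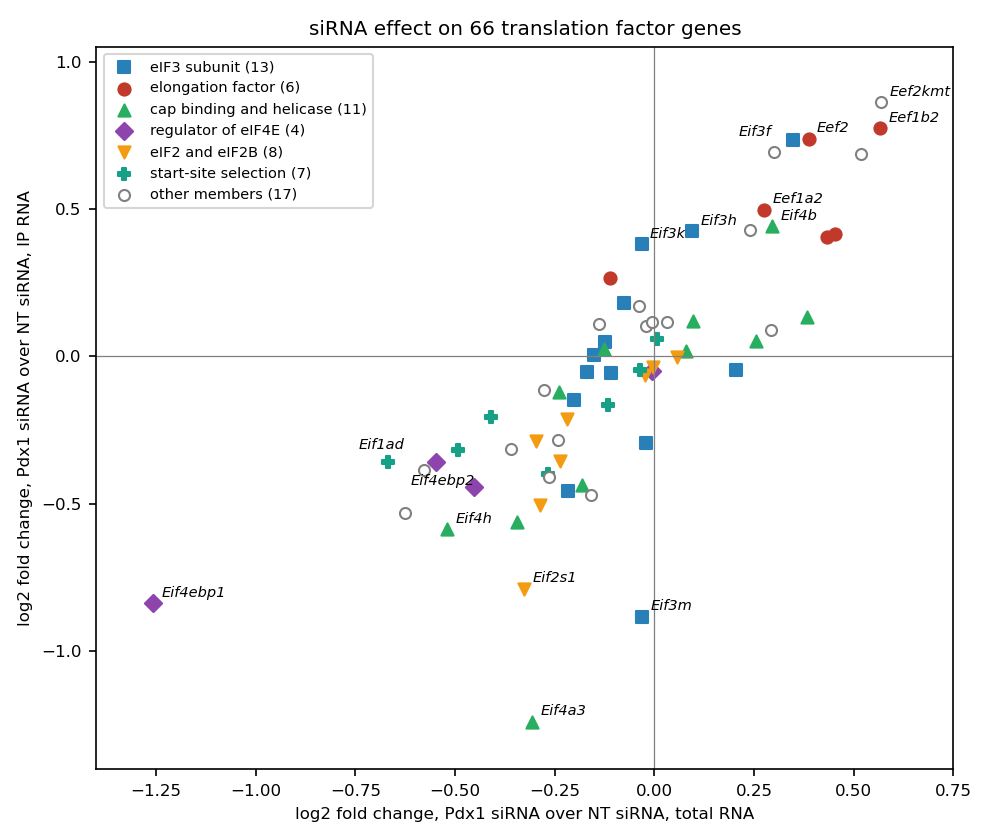
Each point is a translation factor gene, with the log2 fold change of Pdx1 siRNA over NT siRNA in total RNA on the x axis and in IP RNA on the y axis, and colours mark roles. The elongation factors lie at the upper right except Eef1d, which is at −0.11 in total RNA, Eif4ebp1 lies farthest to the left at −1.26, and Eif4a3 and Eif3m, which have near-identical copies, lie lowest.

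The 6 genes of the elongation factors proper were all called higher in IP RNA after Pdx1 siRNA (beside 29.2% of all genes), and 5 of the 6 in total RNA (beside 23.8%). None was called lower. Their median log2 fold change was 0.41 in total RNA and 0.46 in IP RNA. Eef2, the GTPase that translocates the ribosome, had 1854, 1888 and 1836 CPM with Pdx1 siRNA and 1435, 1433 and 1396 CPM with NT siRNA in total RNA. In IP RNA the levels of Eef2 were 2943, 2748 and 2750.1 CPM with Pdx1 siRNA and 1742, 1672 and 1643 CPM with NT siRNA. All Pdx1 siRNA libraries were above all NT libraries in both fractions, and the log2 fold changes were 0.39 ± 0.079 (SE) in total RNA (adjusted p = 0.000728) and 0.74 ± 0.079 (SE) in IP RNA (adjusted p = 1.33e-06). Eef1b2, the subunit of eEF1B that exchanges GDP for GTP on eEF1A, had the largest rise of the group. Its total RNA level was 556, 398 and 409 CPM with Pdx1 siRNA and 332, 265 and 323 CPM with NT siRNA, a log2 fold change of 0.57 ± 0.13 (SE) (adjusted p = 0.00162). Its IP RNA level was 1154, 1078 and 1001 CPM with Pdx1 siRNA and 693, 589 and 609 CPM with NT siRNA, a log2 fold change of 0.77 ± 0.13 (SE) (adjusted p = 9.84e-05). Again no library of either siRNA overlapped the other group.

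Both eEF1A genes rose. Eef1a1, the widely expressed form, had 2479, 2123 and 2095 CPM with Pdx1 siRNA and 1701, 1587 and 1678 CPM with NT siRNA in total RNA and rose by 0.43 ± 0.13 (SE) on the log2 scale (adjusted p = 0.0107). Its IP RNA levels were 2799.8, 2776 and 2539 CPM with Pdx1 siRNA and 2362, 2188 and 1571 CPM with NT siRNA, where NT replicate 3 was the lowest of the 6, and the log2 fold change was 0.41 ± 0.13 (SE) (adjusted p = 0.013). Without NT IP replicate 3 that value was 0.25 (adjusted p = 0.0691), and 77.5% of the Eef1a1 transcript has a near-identical match elsewhere. Eef1a2, the form of muscle, neurons and endocrine cells, has no such copy. It had 203, 237 and 215 CPM with Pdx1 siRNA and 178, 191 and 172 CPM with NT siRNA in total RNA, with a log2 fold change of 0.28 ± 0.084 (SE) (adjusted p = 0.0125), which was not called without Pdx1 total replicate 2 at 0.21. Its IP RNA levels were 276, 248 and 242 CPM with Pdx1 siRNA and 171, 180.4 and 191 CPM with NT siRNA, and the rise of 0.50 ± 0.085 (SE) (adjusted p = 0.00013) was kept under every alternative.

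The remaining eEF1B subunits differed. Eef1g, the structural subunit, had 235, 199 and 212 CPM with Pdx1 siRNA and 167, 143 and 162 CPM with NT siRNA in total RNA; in IP RNA it had 327, 295 and 306 CPM with Pdx1 siRNA and 267, 236 and 192 CPM with NT siRNA. It rose in both with no overlap, with log2 fold changes of 0.45 in total RNA (adjusted p = 0.00284) and 0.42 in IP RNA (adjusted p = 0.0042), although 72% of its transcript has a near-identical copy. Eef1d, another exchange subunit, had 62.5, 62.2 and 54.8 CPM with Pdx1 siRNA and 64.1, 67.3 and 62.6 CPM with NT siRNA in total RNA, where its log2 fold change of −0.11 ± 0.081 (SE) did not pass the test (adjusted p = 0.26). The IP RNA levels of Eef1d were 126, 110.5 and 104 CPM with Pdx1 siRNA and 95.8, 92.3 and 95.8 CPM with NT siRNA, with a log2 fold change of 0.27 ± 0.081 (SE) (adjusted p = 0.0106). That call was lost against NT IP replicate 3 alone (0.25, adjusted p = 0.138), with the set of 4 IP libraries as a term (0.25) and without Pdx1 IP replicate 1 (0.17).

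**Figure D2:**
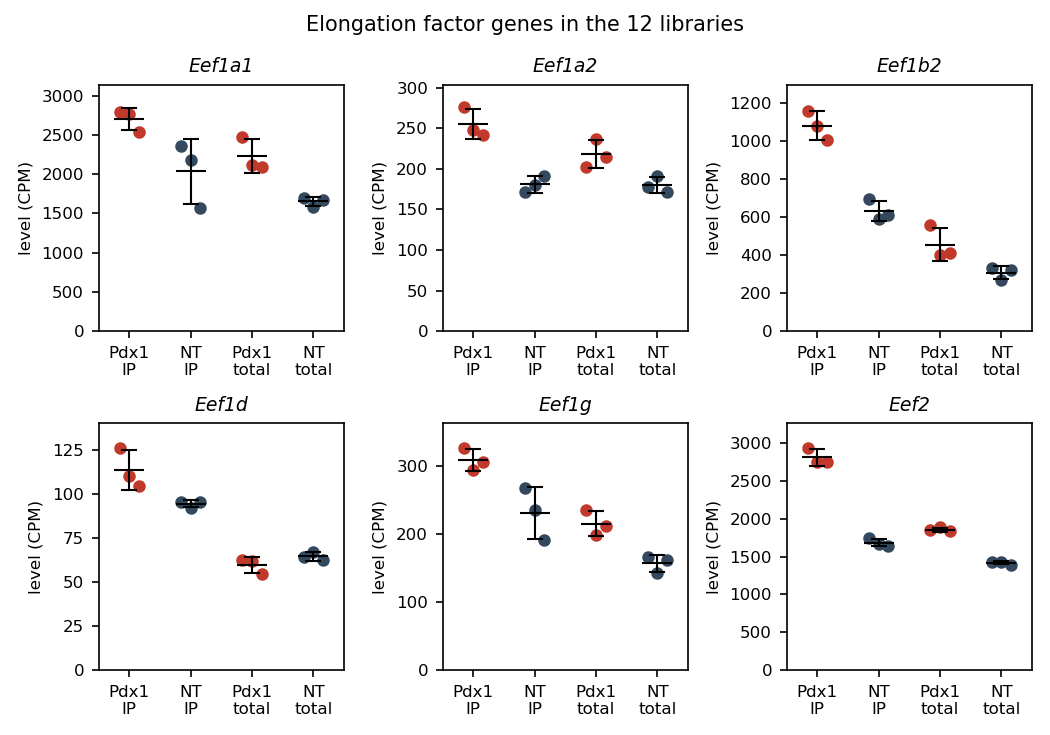
Levels in CPM (y axis, from 0) of the 6 elongation factor genes in each library of the 4 groups (x axis). Points are libraries and the black marks are the mean ± SD of 3. For Eef2 the Pdx1 siRNA points lie above the NT points in both fractions, while for Eef1d they lie above in IP RNA and below in total RNA.

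Elongation factor mRNAs are textbook members of the class with a terminal oligopyrimidine tract, an unbroken run of C and T at the cap that ties their translation to mTOR and Larp1. The 30 bases from 10 before to 20 after the annotated RefSeq start (GRCm38.p6) are shown for the 4 elongation factors present in the promoter table and for the eIF3 subunits with the longest runs inside this window, so that their starts can be set beside the values above. Capitals mark the longest run of C and T on the coding strand, the only strand searched. The windows are chr9:78481705-78481734 (minus strand) for Eef1a1, chr2:181156996-181157025 (minus) for Eef1a2, chr1:63176821-63176850 (plus) for Eef1b2, chr10:81176621-81176650 (plus) for Eef2, chr7:108934405-108934434 (plus) for Eif3f and chr15:79075213-79075242 (plus) for Eif3l.
Eef1a1: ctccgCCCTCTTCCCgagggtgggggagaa
Eef1a2: cctggtctgcgTTCTCgctcactggttctc
Eef1b2: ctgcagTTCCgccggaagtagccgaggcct
Eef2: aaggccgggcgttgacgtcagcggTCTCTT
Eif3f: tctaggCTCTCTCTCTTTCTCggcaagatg
Eif3l: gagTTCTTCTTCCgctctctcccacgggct
Within the window a run of at least 8 C or T was present in 8 of the 50 members found in the table (16%), beside 13% of all 27025 genes of the table. It was present in 1 of the 4 elongation factors (Eef1a1, 10 bases) and in 2 of 10 eIF3 subunits (Eif3f, 15 bases, and Eif3l, 10 bases). The run of Eef2 reaches the last base of the window, and in Eef1a2 a run crosses each edge. Followed past the edges, an alternative chosen after seeing the data, the longest run is 8 bases in Eef2 and 12 bases in Eef1a2, where it lies across the edge before the start. Counted so, 3 of the 4 elongation factors, 4 of 10 eIF3 subunits (Eif3f, Eif3k, Eif3l and Eif3m) and 13 of the 50 members (26%) hold such a run, beside 19.2% of all genes. Eif3f rose in both fractions after Pdx1 siRNA, whereas Eif3l had log2 fold changes of −0.17 in total RNA and −0.052 in IP RNA. An annotated start is not always the start used by the cell, so these windows are a description.

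Genes named after the elongation factors but coding for other proteins went both ways, with 2 of 9 higher and 3 lower in total RNA (22.2% and 33.3%, beside 23.8% and 29.2% of all genes) and 4 higher and 3 lower in IP RNA (44.4% and 33.3%, beside 29.2% and 30.4%). Eef2kmt, a methyltransferase that modifies a lysine of eEF2, had 36.6, 35.5 and 39.7 CPM with Pdx1 siRNA and 24.8, 25.01 and 25.5 CPM with NT siRNA in total RNA; in IP RNA it had 84.2, 75.1 and 99.5 CPM with Pdx1 siRNA and 47.1, 45.3 and 49.8 CPM with NT siRNA. Its log2 fold changes were 0.57 in total RNA (adjusted p = 9.87e-05) and 0.86 in IP RNA (adjusted p = 1.03e-06), with no overlap, and the IP RNA value was the largest rise among the 66 members there. Of the exon bases of Eef2kmt 28.3% are shared on the opposite strand, the partners being Alg1 and Gm15983. The strand setting of the counts is not known, so some of its reads may be theirs. The readthrough gene Eef1akmt4-ece2 had log2 fold changes of 0.52 in total RNA (adjusted p = 8.72e-05) and 0.69 in IP RNA (adjusted p = 4.35e-06). All of its exon bases are shared on the same strand and 3.7% on the opposite strand, the partners being Ece2, Alg3 and Eef1akmt4. Its reads therefore cannot be assigned to it. Its levels were 137, 152 and 162 CPM with Pdx1 siRNA and 103, 107 and 105 CPM with NT siRNA in total RNA; in IP RNA it had 205, 193 and 229 CPM with Pdx1 siRNA and 124, 131 and 134 CPM with NT siRNA.

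Among the other genes of this kind, Eef2k, the kinase that inactivates eEF2, did not pass the test in either fraction. It had 7.58, 9.19 and 9.43 CPM with Pdx1 siRNA and 9.09, 9.28 and 8.62 CPM with NT siRNA in total RNA (log2 fold change −0.039); in IP RNA it had 12.5, 11.6 and 13.5 CPM with Pdx1 siRNA and 10.7, 11.2 and 11.4 CPM with NT siRNA (log2 fold change 0.17). Eef1e1, a scaffold protein of the aminoacyl-tRNA synthetase complex, fell in total RNA, where it had 9.82, 8.70 and 6.65 CPM with Pdx1 siRNA and 13.2, 11.7 and 12.7 CPM with NT siRNA (log2 fold change −0.58 ± 0.12 (SE), adjusted p = 0.000599). Its IP RNA levels were 14.7, 15.7 and 13.1 CPM with Pdx1 siRNA and 20.2, 18.2 and 18.4 CPM with NT siRNA, and the log2 fold change of −0.39 was not called against NT IP replicate 3 alone (−0.35, adjusted p = 0.0923) or with the set of 4 as a term (−0.35). Eef1aknmt, which methylates the start of eEF1A, fell in IP RNA, where it had 8.14, 7.42 and 7.40 CPM with Pdx1 siRNA and 9.19, 10.6 and 10.7 CPM with NT siRNA, a log2 fold change of −0.41 ± 0.086 (SE) (adjusted p = 0.000781). Eef1akmt4, a further methyltransferase of eEF1A, had 5.89, 5.22 and 5.08 CPM with Pdx1 siRNA and 4.55, 4.43 and 4.70 CPM with NT siRNA in total RNA; in IP RNA it had 14.3, 13.1 and 12.4 CPM with Pdx1 siRNA and 9.91, 8.77 and 10.8 CPM with NT siRNA. Its log2 fold changes were 0.24 in total RNA (adjusted p = 0.0579) and 0.43 in IP RNA (adjusted p = 0.000872), and the IP RNA call was lost against NT IP replicate 3 alone (0.29) and with the set of 4 as a term (0.29).

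At the step of cap binding, the largest change of any member in total RNA was the fall of Eif4ebp1, which encodes 4E-BP1, the mTOR-controlled inhibitor of eIF4E. It had 10.2, 10.2 and 10.2 CPM with Pdx1 siRNA and 26.6, 20.5 and 26.3 CPM with NT siRNA in total RNA, a log2 fold change of −1.26 ± 0.10 (SE) (adjusted p = 8.91e-08). Its IP RNA levels were 24.2, 25.2 and 26.1 CPM with Pdx1 siRNA and 44.8, 40.2 and 49.8 CPM with NT siRNA, a log2 fold change of −0.84 ± 0.10 (SE) (adjusted p = 3.62e-06). Every Pdx1 siRNA library was below every NT library, and both calls were kept under every alternative, with ranges of −1.33 to −1.16 in total RNA and −0.98 to −0.76 in IP RNA. Of the 4 regulators of eIF4E, 3 fell in total RNA (75%, beside 29.2% of all genes) and 3 in IP RNA (75%, beside 30.4%), and none rose. Eif4enif1, which carries eIF4E into the nucleus and into processing bodies, had 31.1, 31.4 and 27.5 CPM with Pdx1 siRNA and 40.4, 40.3 and 42.3 CPM with NT siRNA in total RNA; in IP RNA it had 26.3, 27.5 and 27.02 CPM with Pdx1 siRNA and 35.1, 36.1 and 38.7 CPM with NT siRNA. Its log2 fold changes were −0.45 in total RNA (adjusted p = 6.87e-05) and −0.44 in IP RNA (adjusted p = 7.85e-05), with no overlap.

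Eif4ebp2, the related inhibitor, had 15.2, 15.4 and 14.5 CPM with Pdx1 siRNA and 21.4, 20.4 and 24.03 CPM with NT siRNA in total RNA, a log2 fold change of −0.55 ± 0.10 (SE) (adjusted p = 0.000281). Its IP RNA levels were 4.91, 6.42 and 6.65 CPM with Pdx1 siRNA and 8.03, 8.57 and 6.70 CPM with NT siRNA. The lowest NT value there, from replicate 3, was just above the highest Pdx1 siRNA value, and the log2 fold change of −0.36 was not called against NT IP replicate 3 alone (−0.14, adjusted p = 0.507), with the set of 4 as a term (−0.14), or without NT IP replicate 1 (−0.33), NT IP replicate 2 (−0.29) or Pdx1 IP replicate 1 (−0.26). Eif4ebp3 had 7.06, 6.72 and 6.43 CPM with Pdx1 siRNA and 6.12, 7.32 and 6.82 CPM with NT siRNA in total RNA; in IP RNA it had 4.82, 4.37 and 4.59 CPM with Pdx1 siRNA and 5.32, 4.67 and 4.21 CPM with NT siRNA. Its groups overlapped in both. Of the exon bases of Eif4ebp3 67.3% are shared on the same strand with another gene model, so its reads may not all be its own.

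The mRNA of the cap-binding protein itself also fell. Eif4e had 54.3, 52.4 and 49.6 CPM with Pdx1 siRNA and 65.7, 64.04 and 68.5 CPM with NT siRNA in total RNA, a log2 fold change of −0.34 ± 0.074 (SE) (adjusted p = 0.00121). The IP RNA levels of Eif4e were 54.5, 55.2 and 52.4 CPM with Pdx1 siRNA and 85.1, 82.2 and 71.7 CPM with NT siRNA, a log2 fold change of −0.56 ± 0.075 (SE) (adjusted p = 1.3e-05). The groups did not overlap in either fraction. Of all 11 cap-binding and helicase genes 2 rose and 3 fell in total RNA (45.5% called, beside 53% of all genes), and 1 rose and 4 fell in IP RNA (45.5%, beside 59.7%). The 11 include Eif4a3, a helicase of the exon junction complex with near-identical copies, which is among the 4 that fell. The cofactors of the eIF4A helicase went in opposite directions. Eif4b rose, with 199, 197 and 193 CPM with Pdx1 siRNA and 160.3, 159 and 160.1 CPM with NT siRNA in total RNA (0.29 ± 0.064 (SE), adjusted p = 0.00127); in IP RNA it had 241, 239.6 and 239 CPM with Pdx1 siRNA and 184, 173 and 173 CPM with NT siRNA (0.44 ± 0.064 (SE), adjusted p = 3.1e-05). Eif4h fell, with 131, 137 and 123 CPM with Pdx1 siRNA and 185, 194 and 182 CPM with NT siRNA in total RNA (−0.52 ± 0.074 (SE), adjusted p = 3.13e-05); in IP RNA it had 181, 167 and 161 CPM with Pdx1 siRNA and 246, 251 and 266 CPM with NT siRNA (−0.59 ± 0.074 (SE), adjusted p = 7.77e-06). Neither gene has a near-identical copy, the groups did not overlap, and these 4 calls were kept under every alternative.

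The helicases and the eIF4G scaffolds were mixed. Eif4a2 had 259.7, 231 and 237 CPM with Pdx1 siRNA and 222, 221 and 236 CPM with NT siRNA in total RNA; in IP RNA it had 266, 277 and 267 CPM with Pdx1 siRNA and 251, 257 and 236 CPM with NT siRNA. Neither difference passed the test, with log2 fold changes of 0.10 in total RNA and 0.12 in IP RNA. Eif4a1 had 51.6, 50.01 and 47.7 CPM with Pdx1 siRNA and 54.4, 57.9 and 57.03 CPM with NT siRNA in total RNA (log2 fold change −0.18, adjusted p = 0.055); in IP RNA it had 55.3, 49.1 and 49.5 CPM with Pdx1 siRNA and 73.9, 70.7 and 63.2 CPM with NT siRNA. There it fell with a log2 fold change of −0.43 ± 0.076 (SE) (adjusted p = 0.000172), and 68.7% of its transcript has a near-identical copy. Of the eIF4G scaffolds, Eif4g1 had 486, 633 and 673 CPM with Pdx1 siRNA and 464, 527 and 509.9 CPM with NT siRNA in total RNA; in IP RNA it had 582, 572 and 653 CPM with Pdx1 siRNA and 565, 592 and 585 CPM with NT siRNA. Both pairs of groups overlapped. Eif4g3 rose in total RNA, with 192, 245 and 255 CPM with Pdx1 siRNA and 168, 183 and 179.8 CPM with NT siRNA (log2 fold change 0.38 ± 0.10 (SE), adjusted p = 0.00402), and not past the test in IP RNA (0.13, adjusted p = 0.252). The difference between these effects of Eif4g3 had an adjusted p of 0.371.

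**Figure D3:**
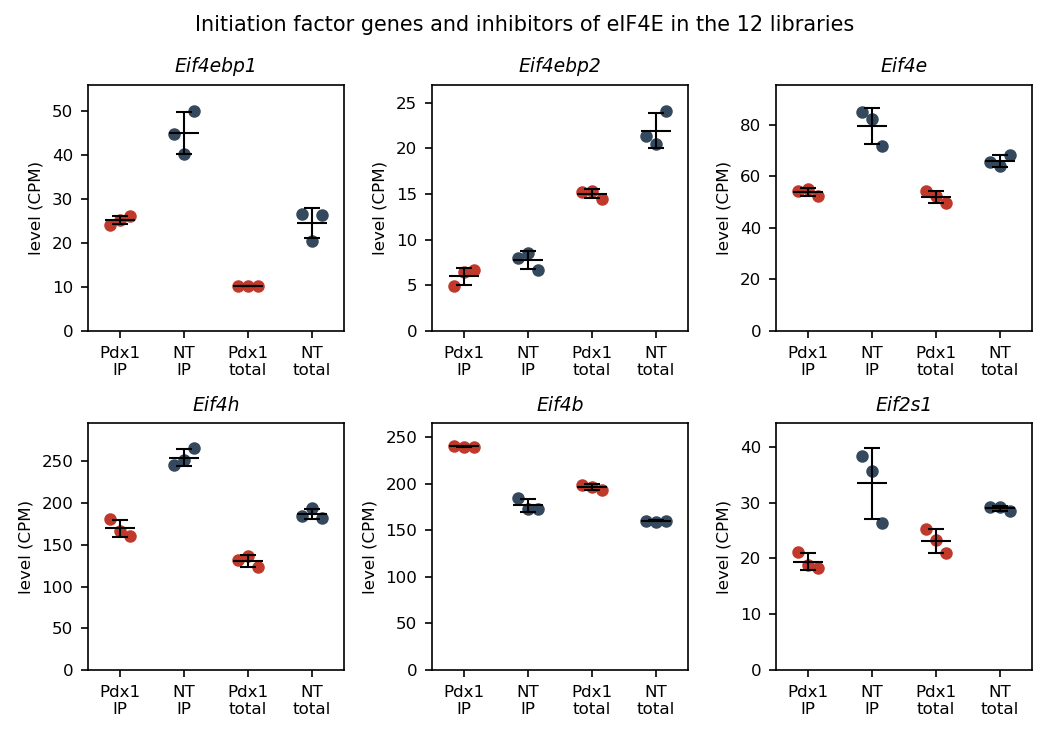
Levels in CPM (y axis, from 0) in each library of the 4 groups (x axis) for 2 inhibitors of eIF4E, for Eif4e, for the helicase cofactors Eif4h and Eif4b and for the eIF2 subunit Eif2s1. Points are libraries and the black marks are the mean ± SD of 3. Eif4ebp1 reads 10.2 CPM in all 3 Pdx1 siRNA total libraries and 20.5 to 26.6 CPM in the NT total libraries.

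For delivery of the initiator tRNA, none of the 8 genes of eIF2 and of its exchange factor eIF2B rose after Pdx1 siRNA, while 4 fell in total RNA and 5 in IP RNA. The shares called, 50% in total RNA and 62.5% in IP RNA, are near the 53% and 59.7% of all genes, of which 29.2% fell in total RNA and 30.4% in IP RNA. Eif2s1 encodes the alpha subunit of eIF2, the target of the stress kinases. It had 25.3, 23.2 and 20.9 CPM with Pdx1 siRNA and 29.3, 29.2 and 28.4 CPM with NT siRNA in total RNA; in IP RNA it had 21.2, 18.9 and 18.2 CPM with Pdx1 siRNA and 38.4, 35.8 and 26.3 CPM with NT siRNA. The groups did not overlap in either. Near-identical matches elsewhere covered 27.6% of the Eif2s1 transcript, and NT IP replicate 3 was the lowest NT IP library. The log2 fold change of Eif2s1 in IP RNA was −0.79 ± 0.12 (SE) (adjusted p = 3.77e-05) and was kept under every alternative, at −0.94 to −0.44. That in total RNA was −0.33 ± 0.12 (SE) (adjusted p = 0.0259). It was not called with upper-quartile scaling or without any of NT total replicates 1, 2 and 3 or Pdx1 total replicates 2 and 3, with values of −0.39 to −0.26 over the alternatives. Eif2s2, the beta subunit, had 35.6, 29.6 and 27.9 CPM with Pdx1 siRNA and 37.7, 37.3 and 38.4 CPM with NT siRNA in total RNA (−0.29, adjusted p = 0.00962); in IP RNA it had 36.1, 37.97 and 33.9 CPM with Pdx1 siRNA and 52.5, 51.9 and 48.8 CPM with NT siRNA (−0.50 ± 0.084 (SE), adjusted p = 0.000111). Its call in total RNA was lost without NT total replicate 1 (−0.25), NT total replicate 3 (−0.24) or Pdx1 total replicate 3 (−0.22). Eif2s3x, the gamma subunit that binds GTP and the tRNA, overlapped between the siRNAs in both fractions, with log2 fold changes of −0.004 in total RNA and −0.036 in IP RNA.

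Of the eIF2B subunits, Eif2b5, the catalytic one, had 56.5, 59.3 and 62.3 CPM with Pdx1 siRNA and 67.5, 69.1 and 70.8 CPM with NT siRNA in total RNA; in IP RNA it had 79.5, 75.5 and 78.2 CPM with Pdx1 siRNA and 86.4, 91.5 and 92.3 CPM with NT siRNA. It fell in both, with log2 fold changes of −0.22 in total RNA (adjusted p = 0.0109) and −0.21 in IP RNA (adjusted p = 0.0111). The call in total RNA was lost without NT total replicate 1 (−0.20), 2 (−0.18) or 3 (−0.16) and when total RNA libraries alone were fitted (−0.19), and that in IP RNA against NT IP replicate 3 alone (−0.25, adjusted p = 0.0693). Eif2b1 had 28.3, 23.7 and 24.9 CPM with Pdx1 siRNA and 31.3, 30.3 and 31.97 CPM with NT siRNA in IP RNA, a log2 fold change of −0.29 (adjusted p = 0.00444) whose call was kept under every alternative. Eif2b3, called in IP RNA alone at −0.35, was not called against NT IP replicate 3 alone (−0.29, adjusted p = 0.127) or with the set of 4 as a term (−0.29). Eif2b2 and Eif2b4 did not pass the test: Eif2b2 was at 0.057 in total RNA and −0.002 in IP RNA, and Eif2b4 at −0.023 in total RNA and −0.064 in IP RNA. Eif2a and Eif2d, which can deliver the initiator tRNA without eIF2, were not called either, with log2 fold changes in IP RNA of 0.12 for each.

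Among 7 genes of start-site selection 3 fell in total RNA (42.9%, beside 53% of all genes called and 29.2% called lower), 4 fell in IP RNA (57.1%, beside 59.7% and 30.4%) and none rose. Roles followed gene names, and the 7 include Eif1ad, whose part in start-site selection was not tested. Eif1ad, named for its eIF1A-like domain, had 25.6, 21.6 and 19.03 CPM with Pdx1 siRNA and 38.4, 31.2 and 35.5 CPM with NT siRNA in total RNA (−0.67 ± 0.10 (SE), adjusted p = 7.56e-05); in IP RNA it had 40.02, 37.8 and 34.5 CPM with Pdx1 siRNA and 49.1, 44.8 and 49.9 CPM with NT siRNA (−0.36 ± 0.10 (SE), adjusted p = 0.00749). Both calls were kept under every alternative, and the groups did not overlap. Banf1 shares 16.7% of the exon bases of Eif1ad on the opposite strand. Eif1ax, which encodes eIF1A, fell in total RNA, where it had 27.95, 22.5 and 20.96 CPM with Pdx1 siRNA and 36.2, 29.6 and 34.6 CPM with NT siRNA, a log2 fold change of −0.49 ± 0.11 (SE) (adjusted p = 0.00124). Eif1ax had 50.7, 53.3 and 44.8 CPM with Pdx1 siRNA and 63.5, 58.1 and 63.9 CPM with NT siRNA in IP RNA. Eif1b, a close relative of the start-codon monitor Eif1, had 29.7, 27.1 and 25.5 CPM with Pdx1 siRNA and 39.7, 34.1 and 35.7 CPM with NT siRNA in total RNA, a log2 fold change of −0.41 ± 0.079 (SE) (adjusted p = 0.000445). In IP RNA Eif1ax (−0.32), Eif1b (−0.21) and Eif1 (−0.40) were called lower, but not against NT IP replicate 3 alone, where Eif1ax was at −0.37, Eif1b at −0.29 and Eif1 at −0.080. With the set of 4 as a term Eif1ax (−0.36) and Eif1 (−0.079) were not called. Without NT IP replicate 1 the calls of Eif1ax (−0.30) and Eif1 (−0.29) were also lost, and without Pdx1 IP replicate 3 those of Eif1ax (−0.25) and Eif1b (−0.19). That of Eif1b was lost as well without NT IP replicate 3 (−0.16) or Pdx1 IP replicate 1 (−0.21). Eif5, which makes eIF2 hydrolyse GTP at the start codon, had 185, 168 and 161 CPM with Pdx1 siRNA and 188, 183 and 187 CPM with NT siRNA in total RNA; in IP RNA it had 170.2, 198 and 167 CPM with Pdx1 siRNA and 204, 205 and 191 CPM with NT siRNA. These groups overlapped in both fractions.

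In the scaffold complex eIF3, 1 of 13 subunits was higher and 3 were lower in total RNA (30.8%, beside 53% of all genes) and 3 higher and 3 lower in IP RNA (46.2%, beside 59.7%). No test compared eIF3 with the rest. The median log2 fold change was −0.076 for eIF3 and −0.12 for the other 53 members in total RNA, and −0.047 for eIF3 and −0.049 for the others in IP RNA. With RLE or upper-quartile scaling the count in total RNA was 1 higher and 0 lower. Eif3f, a subunit of the MPN type, was the only one called higher in both fractions. It had 132, 103 and 100.1 CPM with Pdx1 siRNA and 87.2, 85.2 and 90.9 CPM with NT siRNA in total RNA; in IP RNA it had 256, 259 and 251 CPM with Pdx1 siRNA and 159, 137 and 165 CPM with NT siRNA. There was no overlap, the log2 fold changes were 0.35 in total RNA (adjusted p = 0.00888) and 0.73 in IP RNA (adjusted p = 1.62e-05), and both calls were kept under every alternative. Eif3c, a core scaffold subunit, went the other way in IP RNA, with 77.2, 70.9 and 71.3 CPM with Pdx1 siRNA and 100.3, 105 and 96.3 CPM with NT siRNA, a log2 fold change of −0.46 ± 0.083 (SE) (adjusted p = 0.000223) whose call was kept under every alternative.

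The remaining calls in eIF3 were lost under some alternatives. In total RNA Eif3c had 99.4, 123 and 115 CPM with Pdx1 siRNA and 128, 136 and 128 CPM with NT siRNA (−0.22, adjusted p = 0.0366). Eif3d, which can itself bind caps in human cells, had 71.8, 82.6 and 75.7 CPM with Pdx1 siRNA and 88.6, 90.7 and 85.3 CPM with NT siRNA (−0.20, adjusted p = 0.0273). The gene model Gm17638 shares 32.9% of the exon bases of Eif3d on the opposite strand. Eif3l, a peripheral subunit, had 103, 116 and 111 CPM with Pdx1 siRNA and 127, 125 and 118 CPM with NT siRNA (−0.17, adjusted p = 0.0458). These 3 calls were lost with RLE or upper-quartile scaling and without any of NT total replicates 1, 2 and 3 or Pdx1 total replicates 1 and 3. For Eif3c and Eif3d 10 of the 17 alternatives ended the call, and for Eif3l 12. Over all alternatives the values were −0.29 to −0.14 for Eif3c, −0.26 to −0.14 for Eif3d and −0.21 to −0.11 for Eif3l. In IP RNA, Eif3h had 199, 190.3 and 168 CPM with Pdx1 siRNA and 141, 131 and 143 CPM with NT siRNA (0.43, adjusted p = 0.00122) and Eif3k had 226, 198 and 194 CPM with Pdx1 siRNA and 152, 141 and 181 CPM with NT siRNA (0.38, adjusted p = 0.00296). Eif3a, the largest subunit, had 92.4, 84.1 and 86.96 CPM with Pdx1 siRNA and 109, 112 and 102 CPM with NT siRNA (−0.29, adjusted p = 0.00545). The groups did not overlap for these 3 genes, and 81.5% of the Eif3h transcript has a near-identical copy. Against NT IP replicate 3 alone Eif3h was at 0.37 (adjusted p = 0.0526), Eif3k at 0.19 (adjusted p = 0.259) and Eif3a at −0.22 (adjusted p = 0.187), none of them called. With the set of 4 IP libraries as a term Eif3k was at 0.19 and Eif3a at −0.22, again not called.

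Subunits that did not pass the test in either fraction were Eif3b, Eif3e, Eif3g, Eif3i and Eif3j1. Eif3b had 90.6, 102 and 88.8 CPM with Pdx1 siRNA and 100.2, 107 and 95.5 CPM with NT siRNA in total RNA; in IP RNA it had 104, 92.5 and 92.97 CPM with Pdx1 siRNA and 97.4, 102 and 101 CPM with NT siRNA. Eif3g had 50.9, 55.5 and 50.1 CPM with Pdx1 siRNA and 60.9, 59.4 and 53.8 CPM with NT siRNA in total RNA; in IP RNA it had 96.2, 82.1 and 83.5 CPM with Pdx1 siRNA and 85.1, 83.4 and 92.1 CPM with NT siRNA. Both of these subunits overlapped between the siRNAs. Eif3i, which forms a module with them, had 78.6, 79.1 and 76.4 CPM with Pdx1 siRNA and 82.4, 81.9 and 82.4 CPM with NT siRNA in total RNA; in IP RNA it had 183, 161 and 158 CPM with Pdx1 siRNA and 147, 138 and 158 CPM with NT siRNA. Its groups did not overlap in either fraction, by less than the rounding of these values in IP RNA, and the adjusted p was 0.422 in total RNA and 0.0505 in IP RNA. Eif3j1 had 4.79, 4.32 and 4.08 CPM with Pdx1 siRNA and 4.75, 4.93 and 4.66 CPM with NT siRNA in total RNA; in IP RNA it had 6.75, 7.61 and 7.23 CPM with Pdx1 siRNA and 6.30, 6.51 and 8.13 CPM with NT siRNA. Other subunits were called in a single fraction, and a difference between the fractions was not called for any of them. In total RNA Eif3h had 97.9, 79.95 and 78.4 CPM with Pdx1 siRNA and 84.3, 74.6 and 81.1 CPM with NT siRNA. Eif3k had 81.6, 76.3 and 71.6 CPM with Pdx1 siRNA and 82.6, 76.5 and 75.6 CPM with NT siRNA in total RNA. For Eif3a the total RNA levels were 218, 254 and 238 CPM with Pdx1 siRNA and 227, 257 and 236 CPM with NT siRNA, and the groups overlapped for all 3 genes. In IP RNA Eif3d had 115, 104 and 109.6 CPM with Pdx1 siRNA and 121, 119 and 124 CPM with NT siRNA, with every Pdx1 siRNA library below every NT library and an adjusted p of 0.085. Eif3l had 121, 117 and 118 CPM with Pdx1 siRNA and 124, 122 and 122 CPM with NT siRNA in IP RNA (adjusted p = 0.528).

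The design also asks, by setting IP RNA against total RNA, which mRNAs are over- or under-represented on purified ribosomes. Translation factor mRNAs were mostly over-represented in IP RNA. With Pdx1 siRNA 49 of 66 members were called, 39 higher and 10 lower in IP RNA (74.2%, beside 75.1% of all genes), and with NT siRNA 48 were called, 40 higher and 8 lower (72.7%, beside 69.7%). Called higher were 59.1% with Pdx1 siRNA (beside 36.3% of all genes) and 60.6% with NT siRNA (beside 33.8%). Called lower were 15.2% with Pdx1 siRNA (beside 38.7%) and 12.1% with NT siRNA (beside 35.9%). The median log2 fold change of IP over total RNA was 0.30 over the members with either siRNA and over all genes −0.022 with Pdx1 siRNA and −0.021 with NT siRNA. Calls kept under every alternative numbered 34 of 49 with Pdx1 siRNA and 38 of 48 with NT siRNA. The groups did not overlap for 52 members with Pdx1 siRNA (78.8%, beside 73.5% of all genes) and for 51 with NT siRNA (77.3%, beside 77.5%).

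The subunits of eIF3 were spread widely in this comparison. With Pdx1 siRNA 7 were higher and 3 lower in IP RNA (76.9% called, beside 75.1% of all genes), and with NT siRNA 7 were higher and 2 lower (69.2%, beside 69.7%). Called higher were 53.8% with either siRNA, beside 36.3% of all genes with Pdx1 siRNA and 33.8% with NT siRNA. Their median log2 fold change was 0.51 with Pdx1 siRNA and 0.46 with NT siRNA, and that of the other members was 0.29 with Pdx1 siRNA and 0.30 with NT siRNA. Eif3k was highest, at 226, 198 and 194 CPM in IP RNA and 81.6, 76.3 and 71.6 CPM in total RNA with Pdx1 siRNA. Its log2 fold change was 1.43 ± 0.10 (SE) with Pdx1 siRNA (adjusted p = 8.01e-09) and 1.02 ± 0.10 (SE) with NT siRNA (adjusted p = 3.28e-07). Eif3f, Eif3h and Eif3i followed, Eif3f at 1.20, Eif3h at 1.12 and Eif3i at 1.10 with Pdx1 siRNA, and Eif3f at 0.81, Eif3h at 0.79 and Eif3i at 0.85 with NT siRNA. Eif3a was lowest, at 92.4, 84.1 and 86.96 CPM in IP RNA and 218, 254 and 238 CPM in total RNA with Pdx1 siRNA, a log2 fold change of −1.43 ± 0.081 (SE) (adjusted p = 2.02e-09). With NT siRNA it was at −1.16 ± 0.081 (SE) (adjusted p = 1.95e-08). Eif3c was also lower in IP RNA, at −0.62 with Pdx1 siRNA and −0.38 with NT siRNA, while Eif3b and Eif3l did not pass the test with either siRNA. The third lower call with Pdx1 siRNA was that of Eif3m (−0.62), which turned to 0.71 with the set of 4 IP libraries as a term. It was also lost by DESeq2 (−0.59) and without Pdx1 IP replicate 2 (−0.62), Pdx1 IP replicate 3 (−0.52), Pdx1 total replicate 1 (−0.57) or Pdx1 total replicate 2 (−0.63).

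Transcript length went along with this order only in part. Eif3k has the shortest transcript of the eIF3 genes, 774 bases, and Eif3a one of 5125 bases. Eif3j1 has the longest, 5413 bases, yet was higher in IP RNA. Its mean was 7.20 CPM in IP RNA and 4.40 CPM in total RNA with Pdx1 siRNA. With NT siRNA it was 6.98 CPM in IP RNA and 4.78 CPM in total RNA. Across the 13 eIF3 genes Spearman's rho between length and the IP over total log2 fold change was −0.51 with Pdx1 siRNA and −0.65 with NT siRNA. Across all 66 members it was −0.30 with Pdx1 siRNA and −0.33 with NT siRNA, and across the 12524 genes with a length −0.60 with Pdx1 siRNA and −0.63 with NT siRNA. These are descriptions across genes that share the same libraries. The part of length in the over-representation of short mRNAs in IP RNA was not tested.

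**Figure D4:**
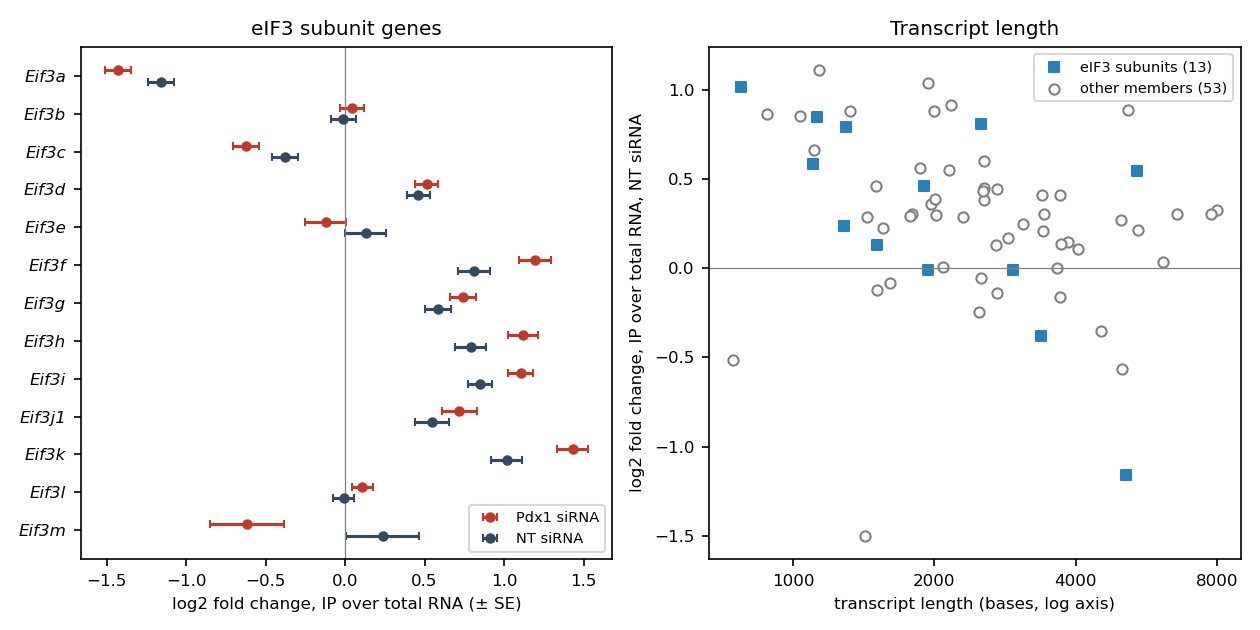
Left, log2 fold change of IP over total RNA (x axis, ± SE) for the 13 eIF3 subunit genes with Pdx1 siRNA and NT siRNA. Right, the same fold change with NT siRNA (y axis) against transcript length in bases (x axis, log scale) for eIF3 subunits and the other 53 members. Eif3k, at 774 bases, lies at 1.02 and Eif3a, at 5125 bases, at −1.16.

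Set against the rest within each library, eIF3 was higher in the IP libraries. The difference between the median centred log2 level of eIF3 and that of the other members was 0.098, −0.041 and 0.077 in Pdx1 siRNA IP RNA and 0.048, 0.044 and 0.066 in NT siRNA IP RNA. In total RNA it was −0.11, −0.079 and −0.13 with Pdx1 siRNA and −0.018, 0.016 and −0.092 with NT siRNA. The pooled SD of replicates was 0.049. IP and total libraries did not overlap with either siRNA, whereas Pdx1 siRNA and NT siRNA libraries overlapped in both fractions.

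Of the 6 elongation factors 5 were higher in IP RNA with Pdx1 siRNA, all but Eef1a1 (83.3%, beside 36.3% of all genes), and 5 with NT siRNA, all but Eef1a2 (83.3%, beside 33.8%). With NT siRNA the calls of Eef1a1, Eef1g and Eef2 were lost with NT IP replicate 3 as the lone NT IP library, at −0.048 for Eef1a1, 0.31 for Eef1g and 0.24 for Eef2, and that of Eef2 also without NT IP replicate 1 (0.22). That of Eef1a1 was also lost with upper-quartile scaling (0.29), with the compared groups alone (0.30), and without NT IP replicate 1 (0.18), NT IP replicate 2 (0.28), NT total replicate 2 (0.32) or NT total replicate 3 (0.35). With Pdx1 siRNA that of Eef1a2, 0.23, was lost under 6 of the 17 alternatives, with values of 0.10 to 0.29. Eef1b2 was the highest, at 1.248 ± 0.13 (SE) with Pdx1 siRNA (adjusted p = 4.04e-07) and 1.04 ± 0.13 (SE) with NT siRNA (adjusted p = 4e-06). Of the start-site genes 6 of 7 were higher in IP RNA with Pdx1 siRNA (85.7%, beside 36.3% of all genes) and 5 with NT siRNA (71.4%, beside 33.8%). Among them was Eif1ax, at 1.06 with Pdx1 siRNA and 0.89 with NT siRNA. With Pdx1 siRNA the call of Eif1a was lost with upper-quartile scaling (0.18) and without Pdx1 IP replicate 2 (0.19), Pdx1 total replicate 2 (0.19) or Pdx1 total replicate 3 (0.16). That of Eif5b was lost with the set of 4 as a term (0.235). The regulators of eIF4E split: Eif4ebp1 was higher in IP RNA, at 1.30 ± 0.10 (SE) with Pdx1 siRNA and 0.88 ± 0.10 (SE) with NT siRNA, and Eif4ebp2 lower, at −1.31 ± 0.11 (SE) with Pdx1 siRNA and −1.50 ± 0.10 (SE) with NT siRNA. For Eif4ebp2 this meant 8.03, 8.57 and 6.70 CPM in IP RNA and 21.4, 20.4 and 24.03 CPM in total RNA with NT siRNA, with no overlap. Eef1akmt4 was at 1.30 with Pdx1 siRNA and 1.11 with NT siRNA. Of its exon bases 43.7% are shared on the same strand and 12.6% on the opposite strand, the partners being Alg3 and a readthrough gene model. Eif5a2 and Eif4ebp3 were lower in IP RNA with either siRNA, Eif5a2 at −0.47 with Pdx1 siRNA and −0.56 with NT siRNA, and Eif4ebp3 at −0.56 with Pdx1 siRNA and −0.51 with NT siRNA. With the set of 4 as a term the Pdx1 siRNA values of these 2 genes were not called, at −0.33 for Eif5a2 and −0.30 for Eif4ebp3. The values of Eif4ebp3 carry the limit of its shared exons, 67.3% on the same strand.

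Among late and accessory factors, Eif5a, which is modified with hypusine and helps stalled ribosomes, had 219.9, 178 and 162 CPM with Pdx1 siRNA and 243, 209 and 226 CPM with NT siRNA in total RNA; in IP RNA it had 268, 249.99 and 245 CPM with Pdx1 siRNA and 279.8, 269.9 and 276 CPM with NT siRNA. Its log2 fold change in total RNA, −0.28 ± 0.10 (SE) (adjusted p = 0.0291), came with an overlap and was lost with upper-quartile scaling (−0.23), when total RNA libraries alone were fitted (−0.25) and without NT total replicate 1 (−0.19), NT total replicate 3 (−0.24), Pdx1 total replicate 2 (−0.24) or Pdx1 total replicate 3 (−0.19). Its paralog Eif5a2 fell in both fractions, with 14.9, 13.3 and 11.8 CPM with Pdx1 siRNA and 21.02, 18.7 and 21.7 CPM with NT siRNA in total RNA (−0.62 ± 0.10 (SE), adjusted p = 7.43e-05); in IP RNA it had 8.64, 10.8 and 9.17 CPM with Pdx1 siRNA and 13.99, 14.6 and 13.01 CPM with NT siRNA (−0.53 ± 0.10 (SE), adjusted p = 0.00045). Eif6, which keeps the ribosomal subunits apart, had 41.4, 43.4 and 38.1 CPM with Pdx1 siRNA and 45.6, 47.5 and 42.4 CPM with NT siRNA in total RNA; in IP RNA it had 75.1, 65.7 and 60.5 CPM with Pdx1 siRNA and 63.9, 60.9 and 61.3 CPM with NT siRNA. Its groups overlapped in both fractions.

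Of the termination factors, Gspt1, the main eRF3, had 46.6, 48.5 and 45.8 CPM with Pdx1 siRNA and 65.98, 65.5 and 63.8 CPM with NT siRNA in IP RNA, a log2 fold change of −0.47 ± 0.064 (SE) (adjusted p = 1.65e-05) whose call was kept under every alternative. In total RNA it had 54.3, 52.04 and 53.2 CPM with Pdx1 siRNA and 57.7, 57.2 and 63.03 CPM with NT siRNA, and the log2 fold change of −0.16 (adjusted p = 0.0475) was lost under 14 of the 17 alternatives, among them RLE and upper-quartile scaling and the omission of any NT total library or of Pdx1 total replicate 2 or 3, with values of −0.17 to −0.074. Gspt2, its retrogene-derived paralog, rose in total RNA by 0.29 ± 0.072 (SE) (adjusted p = 0.00315), with 14.02, 15.03 and 13.8 CPM with Pdx1 siRNA and 11.5, 11.3 and 12.2 CPM with NT siRNA. In IP RNA Gspt2 was at 0.091 with overlapping groups. Etf1, which encodes eRF1 and reads the stop codon, had 83.4, 79.3 and 71.2 CPM with Pdx1 siRNA and 92.6, 92.1 and 92.2 CPM with NT siRNA in total RNA (−0.24, adjusted p = 0.0176); in IP RNA it had 101, 107 and 94.2 CPM with Pdx1 siRNA and 129.97, 124 and 114 CPM with NT siRNA (−0.28, adjusted p = 0.00618). The call in IP RNA was lost against NT IP replicate 3 alone (−0.18) and with the set of 4 as a term (−0.18). That in total RNA was lost with upper-quartile scaling (−0.19), without NT total replicate 1 (−0.20), 2 (−0.20) or 3 (−0.20), or without Pdx1 total replicate 3 (−0.18).

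Whether the siRNA effect differed between the fractions was tested as an interaction. By edgeR's test 0 of the 66 members were called, beside 0.229% of all genes (29 genes). At an unadjusted p under 0.05 there were 14 members, beside 17% of all genes. Without NT IP replicate 3 edgeR called 4 members, Eif2s1, Eif3k, Eif3m and Eif4a3, and without Pdx1 total replicate 1 it called Eif3f. DESeq2 called 2 members: Eef2, whose edgeR value was 0.35 ± 0.11 (SE) (adjusted p = 0.136), and Gspt1, at −0.31 ± 0.090 (SE) (adjusted p = 0.109). The largest positive edgeR value was that of Eif4ebp1, 0.42 ± 0.14 (SE) (adjusted p = 0.155), followed by Eif3k at 0.41 ± 0.14 (SE) (adjusted p = 0.148). The median of this difference of effects was 0.12 for eIF3 and 0.024 for the rest, beside 0.012 over all genes. The value of eIF3 minus the rest, 0.093, was −0.001 without Pdx1 total replicate 1 and 0.043 with the set of 4 IP libraries as a term.

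Some of these values touch genes with near-identical copies. Of the 66 members 7 had a near-identical copy over most of the transcript: Eef1a1, Eef1g, Eif3e, Eif3h, Eif3m, Eif4a1 and Eif4a3. In 3 of these 7, Eif3m, Eif4a3 and Eif3e, NT IP replicate 3 differed by more than 1.5-fold from NT IP replicates 1 and 2, and in 0 of the other 59, beside 2.85% of all genes. Some of these 59 had shorter matches elsewhere, over 49.8% of Eif1, 43.8% of Eif3j1, 43.5% of Eef2, 39% of Eif2s2, 37% of Eif2s3x and 27.6% of Eif2s1. For them NT IP replicate 3 against replicates 1 and 2 was at −0.49 (Eif1), 0.303 (Eif3j1), −0.091 (Eef2), −0.13 (Eif2s2), −0.39 (Eif2s3x) and −0.53 (Eif2s1) in log2. The direction was thus not the same for all of them, and Eef1akmt3, with no match found, was at 0.53. Eif3m, an eIF3 subunit, had 31.3, 28.2 and 24.3 CPM with Pdx1 siRNA and 66.4, 62.1 and 25.6 CPM with NT siRNA in IP RNA; in total RNA it had 45.3, 42.04 and 40.7 CPM with Pdx1 siRNA and 46.6, 41.2 and 43.1 CPM with NT siRNA. Its log2 fold change of −0.88 ± 0.23 (SE) in IP RNA (adjusted p = 0.0045) was 0.12 against NT IP replicate 3 alone (adjusted p = 0.506). Eif4a3, the helicase of the exon junction complex, had 19.4, 19.4 and 18.2 CPM with Pdx1 siRNA and 53.98, 55.6 and 24.8 CPM with NT siRNA in IP RNA; in total RNA it had 38.05, 43.1 and 36.9 CPM with Pdx1 siRNA and 47.99, 53.2 and 44.8 CPM with NT siRNA. NT IP replicate 3 lay near the Pdx1 siRNA IP libraries for both genes and away from its own group. The log2 fold change of Eif4a3 in IP RNA was −1.24 ± 0.21 (SE) (adjusted p = 0.000126) with values of −1.53 to −0.39 over the alternatives. Eif3e had 61.3, 68.2 and 61.9 CPM with Pdx1 siRNA and 75.2, 72.8 and 49.7 CPM with NT siRNA in IP RNA; in total RNA it had 80.6, 62.4 and 65.6 CPM with Pdx1 siRNA and 61.1, 59.4 and 60.2 CPM with NT siRNA. Its log2 fold change in IP RNA was −0.047 against all NT libraries and 0.36 against NT IP replicate 3 alone. For Eif3e and Eif3m the sign of the value in IP RNA thus depended on which NT IP libraries were used.

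**Figure D5:**
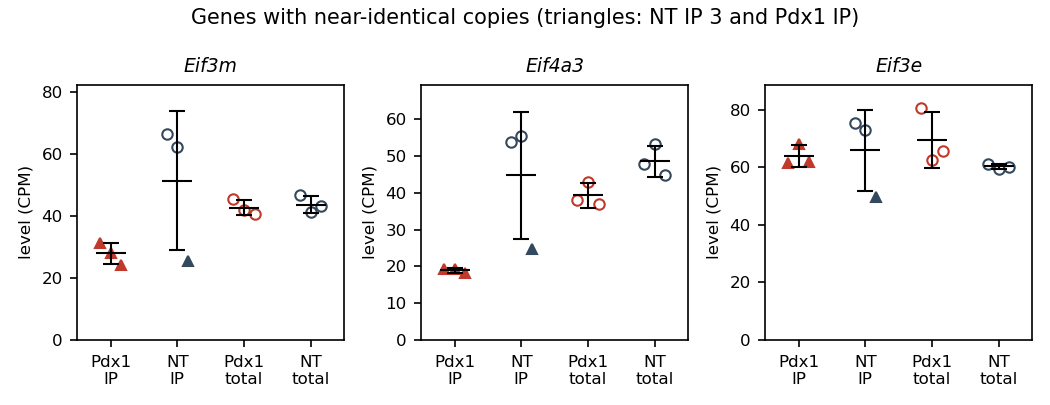
Levels in CPM (y axis, from 0) of Eif3m, Eif4a3 and Eif3e in each library of the 4 groups (x axis), with the mean ± SD of 3. Triangles mark the 3 Pdx1 siRNA IP libraries and NT IP replicate 3, which for Eif3m is at 25.6 CPM against 62.1 and 66.4 CPM in the other NT IP libraries.

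Partners of the translation factors were read from a list. Its 45 kinases, phosphatase subunits and binding partners gave 5 higher and 16 lower in total RNA (46.7%, beside 53% of all genes) and 10 higher and 12 lower in IP RNA (48.9%, beside 59.7%). Their median log2 fold change was −0.072 in total RNA and −0.095 in IP RNA. Calls of single partners were not checked under the alternatives, NT IP replicate 3 alone among them. Mknk1, a kinase that phosphorylates eIF4E, had 61.3, 63.6 and 72.7 CPM with Pdx1 siRNA and 43.01, 40.5 and 38.8 CPM with NT siRNA in total RNA; in IP RNA it had 64.1, 62.8 and 68.9 CPM with Pdx1 siRNA and 36.4, 37.7 and 38.5 CPM with NT siRNA. It rose in both fractions, with log2 fold changes of 0.69 in total RNA (adjusted p = 2.31e-06) and 0.80 in IP RNA (adjusted p = 4.51e-07). Mknk2, which has the same substrate, fell in both fractions, with log2 fold changes of −0.48 in total RNA (adjusted p = 3.07e-05) and −0.25 in IP RNA (adjusted p = 0.0045). Eif2ak3, the PERK kinase of eIF2 alpha, rose in both fractions, with log2 fold changes of 0.52 in total RNA (adjusted p = 0.000733) and 0.56 in IP RNA (adjusted p = 0.000338). The other Eif2ak kinases, Eif2ak1, Eif2ak2 and Eif2ak4, were not called in either fraction. Sesn2, a stress-induced inhibitor of mTOR signalling, rose in both fractions, with log2 fold changes of 0.76 in total RNA (adjusted p = 2.11e-06) and 0.80 in IP RNA (adjusted p = 1.39e-06). Pdcd4, which blocks eIF4A, rose in both fractions, with log2 fold changes of 0.41 in total RNA (adjusted p = 0.000955) and 0.30 in IP RNA (adjusted p = 0.00683). Rps6kb1, the S6 kinase, fell in both fractions, with log2 fold changes of −0.27 in total RNA (adjusted p = 0.012) and −0.36 in IP RNA (adjusted p = 0.00204). Impact was also called higher in both fractions. Called lower in both as well were Bzw1, Ddx3x, Dhx29, Abce1, Abcf1, Paip1, Dph2 and Dph6. Ddit4 fell in total RNA (−0.42, adjusted p = 0.00112) and was not called in IP RNA (−0.022).

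In IP against total RNA the partners were called 15 higher and 20 lower with Pdx1 siRNA (33.3% and 44.4%, beside 36.3% and 38.7% of all genes) and 16 higher and 18 lower with NT siRNA (35.6% and 40%, beside 33.8% and 35.9%). Gcn1, a large ribosome-associated activator of an eIF2 kinase, was lower in IP RNA, with log2 fold changes of −1.79 ± 0.14 (SE) with Pdx1 siRNA and −1.53 ± 0.14 (SE) with NT siRNA. Mtor was also lower, at −1.49 ± 0.11 (SE) with Pdx1 siRNA and −1.35 ± 0.10 (SE) with NT siRNA. Denr, which acts in the recycling of ribosomes, was higher, at 0.99 ± 0.11 (SE) with Pdx1 siRNA and 0.74 ± 0.11 (SE) with NT siRNA. The median log2 fold change of the partners was −0.015 with Pdx1 siRNA and −0.082 with NT siRNA, beside 0.30 over the translation factors with either siRNA.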

How the data were processed

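The authors deposited raw counts of reads per RefSeq transcript for each of 12 libraries. Per the submitters' processing notes, TopHat2 and featureCounts were used with build mm10. The sources used here give no strand or multi-mapping setting, so overlapping or duplicated genes may share reads. Of 17133 transcripts 16838 were matched to a symbol through RefSeq GRCm38.p6, and the transcript with the highest total stood for its gene, giving 12643 genes; 295 transcripts without a symbol were left out, with 0.577% to 0.83% of the counts of each library. All 66 translation factors passed the default expression filter, which removed 0 genes.

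Counts were fitted with edgeR 4.0.16 (R 4.3.3, limma 3.58.1): TMM scaling, a mean for each of the 4 groups over all 12 libraries, quasi-likelihood tests, and Benjamini-Hochberg adjustment over all 12643 genes with a threshold of 0.05. All adjusted p-values are from this test unless DESeq2 (1.42.0) is named. CPM were computed on TMM-scaled library sizes, and CPM per kb on GENCODE M21 transcript lengths. A near-identical copy meant minimap2 (2.31) alignments of at least 100 bases and 95% identity outside the locus over at least 50% of the transcript. The fit was tested on simulated data with known changes in 50 genes of each size. For the interaction it recovered 6% of 1.25-fold, 44% of 1.5-fold and 90% of 2-fold changes. Small differences between the fractions could therefore go uncalled. Counts are not corrected for PCR duplicates, so counting error is a lower limit.

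Alternatives were RLE and upper-quartile scaling, DESeq2, no filter, 1 CPM in 3 libraries, omission of Ins1 and Ins2, a replicate block, summed transcripts, the set of 4 IP libraries as a term, NT IP replicate 3 as the lone NT IP library, the compared groups alone, and each library left out. Values without the members that have a near-identical copy, and runs of C and T followed past the window, were added after the data were seen. Members and lists were chosen with earlier results of these data known. Values in each library were given for every eIF3 subunit, for the 5 highest and 5 lowest called members of each comparison averaging 5 CPM or more, and for 16 members listed by role; other members are summarised by role.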

Additional observations from a re-analysis of the deposited data

How the results depend on the processing

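In total RNA the count of 34 ranged from 22 (without NT total replicate 1) to 36 when a library was left out. In IP RNA it was 39, with 35 to 41 when a library was left out and 24 against NT IP replicate 3 alone. For the interaction it was 0, with 2 by DESeq2 and 0 to 4 (without NT IP replicate 3) when a library was left out. Over all genes the interaction gave 29 calls, 327 by DESeq2, 373 with the replicate number as a block and 52 with upper-quartile scaling. The median of eIF3 minus that of the other members was 0.002 for the siRNA effect in IP RNA, with 0 to 0.064 when a library was left out. For the interaction it was 0.093, with −0.001 to 0.13 when a library was left out, and 0.043 both with the set of 4 IP libraries as a term and against NT IP replicate 3 alone. For IP over total RNA with Pdx1 siRNA it was 0.22, with 0.14 to 0.26 when a library was left out, 0.13 with the set of 4 as a term and 0.31 without members that have a copy. Directions turned for members with copies. With the set of 4 as a term the siRNA effect in IP RNA was 0.36 for Eif3e and 0.12 for Eif3m, and IP over total RNA with Pdx1 siRNA was 0.45 for Eif3e, 0.71 for Eif3m and 0.092 for Eif4a3. Against NT IP replicate 3 alone the siRNA effect in IP RNA was 0.36 for Eif3e and 0.12 for Eif3m, and IP over total RNA with NT siRNA was −0.048 for Eef1a1 and −0.74 for Eif3m. Whether replicate numbers pair libraries was not settled, and the main fit had no replicate term. Deviations of same-numbered libraries correlated at −0.11 to 0.51 (median 0.116). Those of differently numbered libraries correlated at −0.52 to 0.27 (median −0.037). With the number as a block, 39 members were called in total RNA, 40 in IP RNA, 0 for the interaction, and 53 and 50 in IP against total RNA with Pdx1 and NT siRNA. Of single-member values under the alternatives 5630 stayed on the same side of the threshold. With direction kept, 196 lost a call and 105 gained one. A further 9 turned direction with a call in the main fit or in the alternative. Turns between values called in neither fit are among the 5630, and the causes were not tested. With 3 libraries a group, calls of small changes such as those of Eif3l and Gspt1 in total RNA were lost when single libraries were left out.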
